A study of Mus musculus with 2 samples.

Results

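Receptors of microbial patterns and of dying cells, with some of their partners, were followed as 10 genes in cortical myeloid cells of a mouse amyloid model. The members were chosen by symbol: Axl, Mertk, Gas6, Cd14, Tlr2, Tlr4, Tlr7, Ly86, Stab1 and Sirpa, out of 31053 gene rows in each library. The animals were male 5xFAD hemizygous mice on C57BL/6J, a transgenic model with human familial Alzheimer mutations, and no group lacked the transgene. In both groups 5 uL of the photosensitizer Visudyne entered the cisterna magna at 4 months of age and again 3 weeks later, and cells were taken 3 weeks after the second round, with an age label of 5.5 months. The control group had Visudyne alone. The photoconversion group also had 5 steps of 689-nm light through the skull, which the labels give as ablation of meningeal lymphatic vessels. Each group was 1 library of cells pooled from 3 mice, sorted from cortex as live CD45+ CD11b+ Ly6G- singlets. The question was how levels of these genes differed between the libraries and between microglial states within each library.

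The TAM receptors Axl and Mertk are tyrosine kinases that bind phosphatidylserine on dying cells through bridging ligands, of which Gas6 is shared by both. Toll-like receptors and Cd14 sense microbial lipids and nucleic acids, and Sirpa restrains engulfment when it meets Cd47 on another cell. In microglia, Mertk is known as a gene of the resting state and Axl as a gene that rises in the disease-associated state around amyloid plaques.

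Barcodes were kept when 200 or more genes were detected and mitochondrial UMIs made up 10% or less, which left 555 of 2000 barcodes in the control library and 317 of 2000 in the photoconversion library. A UMI is a counted RNA molecule, and levels are given as CPM, UMIs per 1000000 UMIs of the same cells. The kept cells held 2422711 and 1816177 UMIs, with medians of 2670 and 3410 per cell, so cells of the photoconversion library were deeper. No barcode was shared between the kept cells of the libraries. A microglial marker UMI was seen in 554 and 315 kept cells. A stricter marker rule was met by 540 and 308. It asked for at least 3 microglial marker UMIs, and more of them than of each other cell type's markers. Markers of border macrophages (6 of 7 with a UMI in the control, 3 of 7 after photoconversion) summed to 96 UMIs in 28 cells and 18 UMIs in 14 cells, and Lyve1 among them was at 0 in both. Monocyte markers summed to 184 and 29 UMIs, and Vcan among them was at 0 in both. Endothelial and mural markers summed to 2684 and 2004 UMIs, most of them of Bsg. Astrocyte markers summed to 458 and 293 UMIs and oligodendrocyte markers to 427 and 261. All intervals are 95% and cover counting error only. With 1 library per group, differences between mice could not be measured and no test was made.

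Cells were divided by 2 marker genes. Cells with more Cst7 than P2ry12 UMIs are called Cst7-dominant, and Cst7 encodes cystatin F, a gene of disease-associated microglia. Cells with more P2ry12 than Cst7 UMIs are called P2ry12-dominant, and P2ry12 is a purinergic receptor of resting microglia. Cst7-dominant cells were 207 of 555 in the control library (37.3%, 33.3 to 41.5) and 157 of 317 in the photoconversion library (49.5%, 43.9 to 55.2). P2ry12-dominant cells were 290 (52.3%, 48.0 to 56.5) and 133 (42.0%, 36.5 to 47.6). The division is a cut in a range, since 158 control and 82 photoconversion cells lay within 3 UMIs of it. Other state genes moved with the division: 13 of 13 measured disease-associated genes were higher and 9 of 9 homeostatic genes lower in Cst7-dominant cells of each library. Of all 3888 genes with at least 100 UMIs, 34.3% were higher there in the control and 39.3% after photoconversion. Most genes were thus lower by this rule, so the homeostatic count says less than the disease-associated count. Cst7-dominant cells were deeper, with medians of 4655 against 2206.5 UMIs in the control library and 5852 against 2739 in the photoconversion library. Between libraries, endothelial and mural markers went from 1291 to 744 CPM in P2ry12-dominant cells and from 1023 to 1131 CPM in Cst7-dominant cells. Among them, Cldn5 and Itm2a were higher in P2ry12-dominant control cells, and Vtn and Rgs5 in Cst7-dominant photoconversion cells. The part of such RNA in the levels of the members was not tested.

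Axl and Mertk went opposite ways between the states and Stab1 had the lowest state ratio among members with at least 100 UMIs, so the upstream sequences of these 3 genes are shown. Axl lies at chr7:25757273-25788705 on the minus strand, Mertk at chr2:128698956-128802894 on the plus strand and Stab1 at chr14:31139013-31168641 on the minus strand (mm10, GENCODE). The RefSeq promoter table, build GRCm38.p6, matched 6 of 10 members by symbol and Cd14, Tlr4, Tlr7 and Sirpa were unmatched. The windows are the 250 bases before the annotated RefSeq start, read 5′ to 3′ on the strand of the gene, at chr7:25788734-25788983, chr2:128698665-128698914 and chr14:31168642-31168891. Capitals mark the GC box GGGCGG on either strand, a motif bound by Sp factors that was searched after these windows had been seen.
Axl: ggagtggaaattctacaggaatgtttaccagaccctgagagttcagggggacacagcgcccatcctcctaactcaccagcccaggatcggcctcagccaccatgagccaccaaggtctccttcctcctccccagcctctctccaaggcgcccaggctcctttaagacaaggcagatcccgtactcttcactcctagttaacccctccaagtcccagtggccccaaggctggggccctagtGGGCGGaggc
Mertk: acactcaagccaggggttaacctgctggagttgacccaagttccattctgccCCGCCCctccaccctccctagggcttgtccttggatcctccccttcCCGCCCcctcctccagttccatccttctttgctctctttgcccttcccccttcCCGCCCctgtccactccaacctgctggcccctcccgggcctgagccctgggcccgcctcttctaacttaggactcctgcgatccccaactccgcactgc
Stab1: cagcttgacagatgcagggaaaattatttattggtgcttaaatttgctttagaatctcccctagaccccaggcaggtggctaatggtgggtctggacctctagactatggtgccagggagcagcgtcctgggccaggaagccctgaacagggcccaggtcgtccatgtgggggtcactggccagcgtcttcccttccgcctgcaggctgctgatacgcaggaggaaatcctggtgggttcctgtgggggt
The Axl window held 1 GC box, the Mertk window 3 and the Stab1 window 0, and 32.7% of 32817 promoter windows of the same length held at least 1. Searched likewise on both strands, the ETS motif GGAAGT (19.7% of windows), the AP-1 motif TGANTCA (6.75%) and the E-box CACGTG (6.02%) had no match in these 3 windows, and none of the motifs overlapped. The GC content was 60.0% for Axl, 63.6% for Mertk and 57.2% for Stab1.

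Across the 10 genes, Axl alone had a higher level in Cst7-dominant cells with an interval that left out 1 in both libraries, as did 11.1% of 3888 genes with at least 100 UMIs. By the same measure 6 of 10 genes were lower there in both: Mertk, Cd14, Tlr4, Tlr7, Stab1 and Sirpa. Of the 9 members with at least 100 UMIs these were 5, against 20% of the 3888 genes. For Gas6, Tlr2 and Ly86 the interval of the Cst7-dominant over P2ry12-dominant ratio, here called the state ratio, included 1 in both libraries. By size, 1 of 9 members with at least 100 UMIs was at least 1.5-fold higher in Cst7-dominant cells of both libraries, against 7.41% of 3888 genes. On the lower side it was 3 of 9, Mertk, Tlr7 and Stab1, against 20.6%. Tlr4 fell under that minimum. The median log2 state ratio of all 10 members was -0.50 in the control and -0.55 after photoconversion, beside -0.27 and -0.19 over all 3888 genes, so low state ratios are to be read against a shift of the whole profile.

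**Figure D1:**
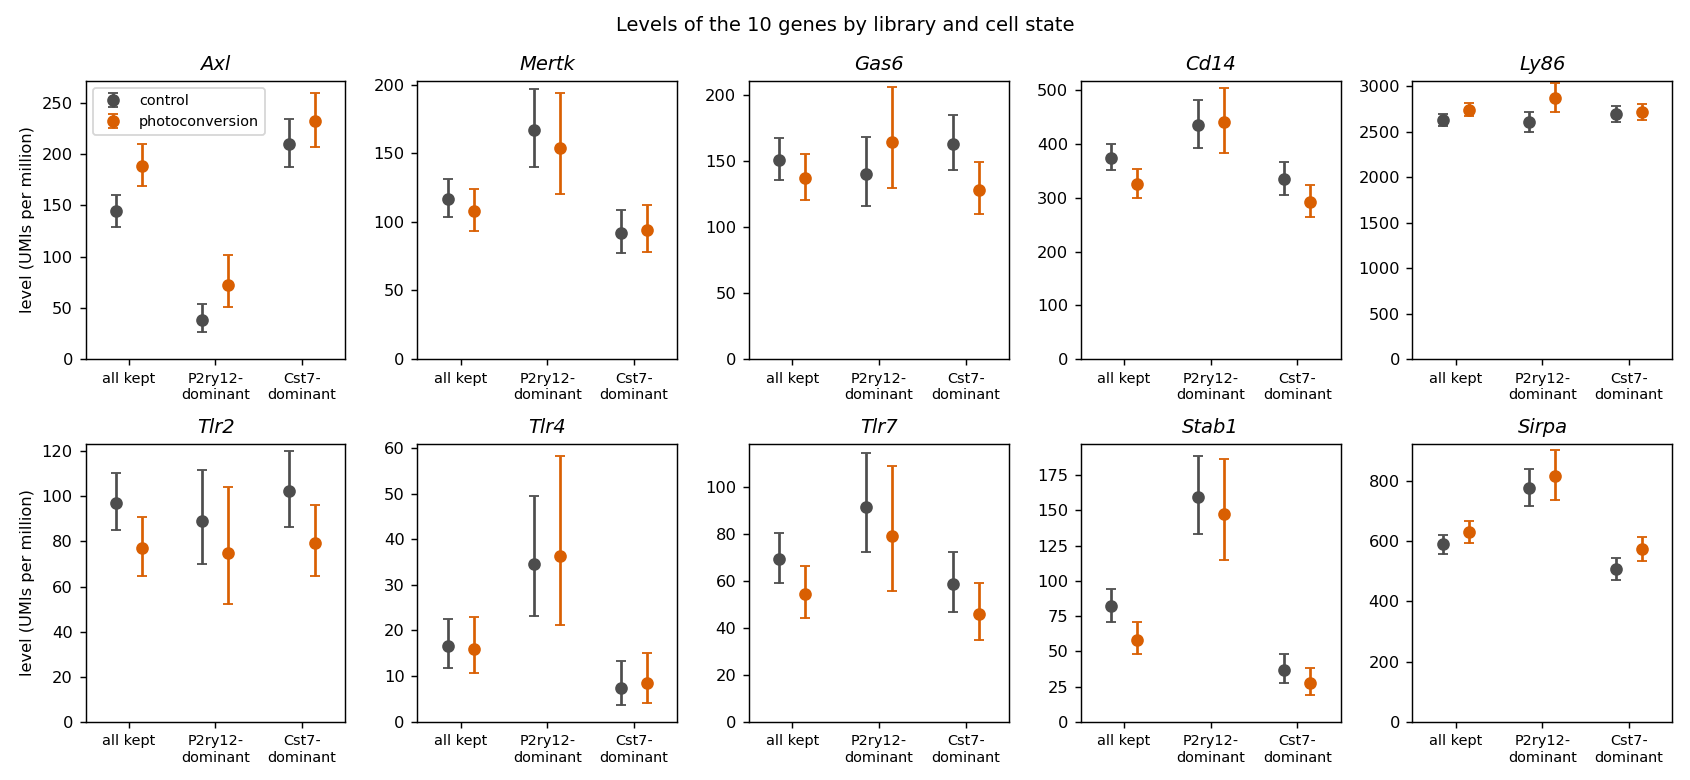
Level of each gene in CPM (vertical axis, from 0, scaled separately for each gene) in all kept cells, P2ry12-dominant and Cst7-dominant cells of the control (grey) and photoconversion (orange) libraries. Points are 1 library each and bars are 95% Poisson intervals; Axl is at 38.1 CPM in P2ry12-dominant and 210 CPM in Cst7-dominant control cells, and Stab1 at 159 and 36.8 CPM.

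Axl, the TAM receptor linked to inflamed tissue, had 308 UMIs in Cst7-dominant and 32 in P2ry12-dominant control cells, levels of 210 CPM (187 to 235) and 38.1 CPM (26.0 to 53.8). After photoconversion it had 304 and 34 UMIs, levels of 232 CPM (207 to 260) and 72.7 CPM (50.4 to 102). The intervals of the states did not overlap in either library. The state ratio was 5.51 (3.82 to 8.20) in the control and 3.19 (2.23 to 4.69) after photoconversion, and the latter over the former was 0.579 (0.337 to 0.994). Axl was thus higher in Cst7-dominant cells of both libraries, with the wider gap in the control. The P2ry12-dominant sums were carried by few cells: the 10 richest held 71.9% of the Axl UMIs in the control and 64.7% after photoconversion. In Cst7-dominant cells the 10 richest held 28.9% and 30.6%. Leaving out 10 cells of each group therefore takes more from the P2ry12-dominant sums by design. The state ratios were then 14.5 and 6.46, which is no check of their size. In cells thinned to 1000 UMIs, with states called on those thinned UMIs, they were 2.33 and 1.82.

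Mertk, the TAM receptor of tissue-resident macrophages, went the other way. It had 135 UMIs in Cst7-dominant and 140 in P2ry12-dominant control cells, levels of 92.0 CPM (77.2 to 109) and 167 CPM (140 to 197). The photoconversion sums were 123 and 72 UMIs, levels of 93.9 CPM (78.0 to 112) and 154 CPM (121 to 194). The state ratio was 0.552 (0.433 to 0.705) in the control and 0.610 (0.452 to 0.827) after photoconversion. The Mertk level in Cst7-dominant cells was therefore close in the 2 libraries, and the P2ry12-dominant cells stood above it in both. With states called on UMIs thinned to 1000, the ratio kept its side in the control at 0.533 and was 1.03 in the photoconversion library. At a denominator without ribosomal and mitochondrial genes it was 0.675 in the photoconversion library, just short of the 1.5-fold size, and with cells weighed equally it was 0.335 in the control.

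The pair was also compared directly, as Axl UMIs per Mertk UMI, a quantity that does not depend on the total used for scaling. In the control library it was 2.28 in Cst7-dominant and 0.229 in P2ry12-dominant cells, a 9.98-fold difference (6.36 to 15.9). In the photoconversion library it was 2.47 and 0.472, a 5.23-fold difference (3.24 to 8.54). The value in Cst7-dominant cells was similar in both libraries, and the value in P2ry12-dominant cells was higher after photoconversion. After thinning to 1000 UMIs the difference was 11.5-fold in the control and 2.38-fold after photoconversion. Without the 10 richest cells of each group it was 27.7-fold and 10.6-fold. That setting takes most Axl UMIs of the P2ry12-dominant cells, so it is no check of the size.

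At equal depth Axl and Mertk were sparse, and the shares of cells with each were compared. Of control cells thinned to 1000 UMIs, 13.7% of 183 Cst7-dominant cells had Axl only, 4.92% Mertk only and 2.19% both, where independent detection of the genes would give 1.13%. Among 232 P2ry12-dominant control cells 3.02% had Axl only and 16.8% Mertk only, and 0 had both. That count allows up to 1.29% of cells with both UMIs at the thinned depth and sets no limit on cells that express both; unthinned, 7 of the 290 cells had both. In the photoconversion library, 11.3% of 142 Cst7-dominant cells had Axl only and 8.45% Mertk only, against 5.88% and 11.8% of 119 P2ry12-dominant cells. Both genes were seen in 0.704% of those Cst7-dominant cells, where independent detection would give 1.10%. The libraries thus went opposite ways, on 4 control and 1 photoconversion Cst7-dominant cells with both, too few to tell joint from independent detection. Cells with neither gene made up 79.2% and 80.2% of the states in the control and 79.6% and 81.5% after photoconversion. The share of cells with neither receptor was thus close across states and libraries. In the control, the Axl shares of the states (15.8%, 10.9 to 22.0, and 3.02%, 1.22 to 6.12) did not overlap, nor did the Mertk shares (7.10%, 3.84 to 11.8, and 16.8%, 12.2 to 22.3). After photoconversion they overlapped for Axl (11.97%, 7.13 to 18.5, and 6.72%, 2.95 to 12.8) and for Mertk (9.15%, 4.97 to 15.1, and 12.6%, 7.23 to 19.9). Thinning left out 116 control and 45 photoconversion cells. Without thinning, a cell with both transcripts was seen 67 times among 555 control cells and 63 times among 317 photoconversion cells. The kept cells that did not meet the microglial marker rule were 15 control and 9 photoconversion cells, with median depths of 528 and 741 UMIs. In them Axl had 0 UMIs, which allows up to 20% and 33.3% of cells with a UMI at that depth. Mertk had 1 UMI in such cells of each library. These cells are too few and too shallow to set the level of free RNA or to bound the share that expresses Axl.

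**Figure D2:**
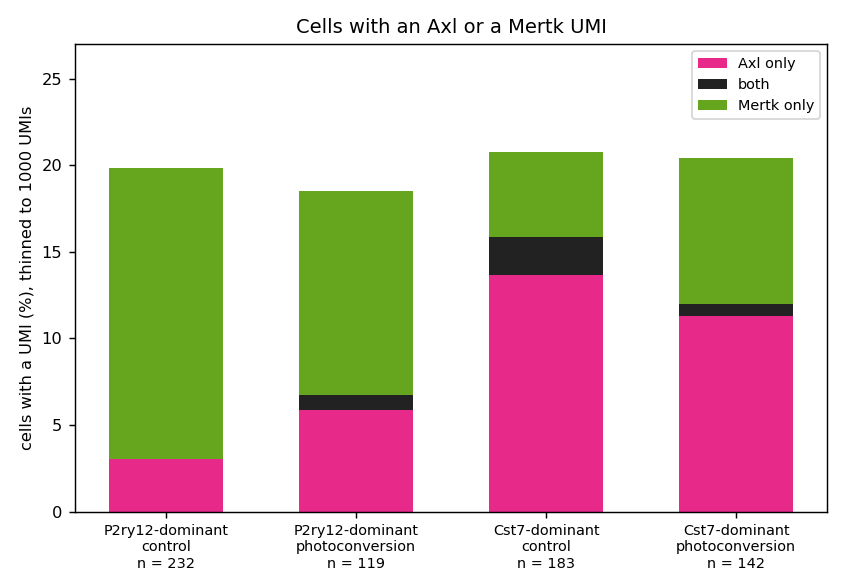
Percent of cells with an Axl UMI only, a Mertk UMI only or both (stacked bars, vertical axis in percent from 0) after thinning every cell to 1000 UMIs, by state and library, with the number of cells under each bar. The bars are nearly equal in height, and Axl only makes up 13.7% and 11.3% of Cst7-dominant cells against 3.02% and 5.88% of P2ry12-dominant cells.

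Gas6, the bridging ligand of both receptors, lies at chr8:13465374-13494490 on the minus strand (mm10). It was at 163 CPM (239 UMIs) in Cst7-dominant and 140 CPM (118 UMIs) in P2ry12-dominant control cells, and at 128 CPM (168 UMIs) and 165 CPM (77 UMIs) in the photoconversion library. The higher state was thus a different state in each library, although every pair of intervals overlapped. The state ratio was 1.16 (0.927 to 1.46) in the control and 0.779 (0.591 to 1.03) after photoconversion. The second over the first was 0.671 (0.467 to 0.967). After thinning to 1000 UMIs the control ratio was 0.792, on the same side as the photoconversion library.

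Stab1, a scavenger receptor that also binds phosphatidylserine, showed the lowest state ratios among members past the minimum. In the control library it had 54 UMIs in Cst7-dominant and 134 in P2ry12-dominant cells, levels of 36.8 CPM (27.7 to 48.0) and 159 CPM (134 to 189). After photoconversion it had 36 and 69 UMIs, levels of 27.5 CPM (19.2 to 38.0) and 148 CPM (115 to 187). The states did not overlap in either library. The state ratio was 0.231 (0.165 to 0.319) and 0.186 (0.121 to 0.283). It stayed between 0.135 and 0.301 in the control and between 0.156 and 0.280 after photoconversion under 13 alternatives. Both low ends came from leaving out the 10 richest cells of each group. These held 57.4% of the Stab1 UMIs in Cst7-dominant and 23.1% in P2ry12-dominant control cells, and 47.2% and 36.2% after photoconversion. That setting lowers the ratio by design, so the low ends are no check of its size. Border macrophages also carry Stab1, and the cells with a border macrophage marker held 16 of 199 Stab1 UMIs in the control and 6 of 106 after photoconversion.

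Cd14, the co-receptor that hands lipopolysaccharide to Tlr4, was at 335 CPM (491 UMIs) in Cst7-dominant and 436 CPM (366 UMIs) in P2ry12-dominant control cells. The photoconversion values were 292 CPM (383 UMIs) and 441 CPM (206 UMIs). The state ratio was 0.768 (0.670 to 0.882) and 0.664 (0.559 to 0.790), so Cd14 was lower in Cst7-dominant cells of both libraries. Ly86, the MD-1 protein that pairs with the Tlr4 homologue Cd180, was nearly flat, from 2602 CPM in P2ry12-dominant control cells to 2870 CPM in P2ry12-dominant photoconversion cells. Its state ratio was 1.03 (0.982 to 1.09) and 0.945 (0.887 to 1.01). Ly86 had 6358 and 4978 UMIs in kept cells, the most of any member and therefore the narrowest intervals. Its control ratio moved from 1.03 to 1.17 with TMM scaling and to 0.893 in cells of 2000 to 8000 UMIs.

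Of the Toll-like receptors, Tlr2, which senses bacterial lipoproteins, had 150 UMIs in Cst7-dominant and 75 in P2ry12-dominant control cells, and 104 and 35 in the photoconversion library. Its levels were 102 and 89.3 CPM in the control and 79.4 and 74.9 CPM after photoconversion, with overlapping intervals. Its state ratio ran from 0.710 with cells weighed equally in the control to 2.16 with states from thinned UMIs after photoconversion. Tlr7, the endosomal receptor of single-stranded RNA, was at 58.6 CPM (86 UMIs) in Cst7-dominant and 91.6 CPM (77 UMIs) in P2ry12-dominant control cells. In the photoconversion library it was at 45.8 CPM (60 UMIs) and 79.1 CPM (37 UMIs). The Tlr7 state ratio was 0.640 (0.465 to 0.882) and 0.579 (0.378 to 0.897), but its side varied between settings. It was 0.245 in thinned control cells, 1.06 in control cells of 2000 to 8000 UMIs and 1.15 in thinned photoconversion cells. After thinning, a Tlr7 UMI was left in 6 Cst7-dominant and 27 P2ry12-dominant control cells, and in 9 and 8 photoconversion cells. Tlr4, the lipopolysaccharide receptor, was sparse, with 11 UMIs in Cst7-dominant and 29 in P2ry12-dominant control cells and 11 and 17 in the photoconversion library. Its state ratio was 0.217 (0.098 to 0.448) and 0.231 (0.098 to 0.523), below 1 in both libraries with wide intervals.

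Sirpa, the inhibitory receptor for Cd47, was at 506 CPM (743 UMIs) in Cst7-dominant and 777 CPM (653 UMIs) in P2ry12-dominant control cells. In the photoconversion library it was at 573 CPM (751 UMIs) and 817 CPM (382 UMIs). The states did not overlap in either library, and the state ratio was 0.652 (0.586 to 0.725) and 0.702 (0.620 to 0.796). In cells thinned to 1000 UMIs, 38.8% of Cst7-dominant and 58.6% of P2ry12-dominant control cells had a Sirpa UMI, against 40.8% and 61.3% in the photoconversion library. The share of cells and the level therefore went the same way for Sirpa in both libraries.

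**Figure D3:**
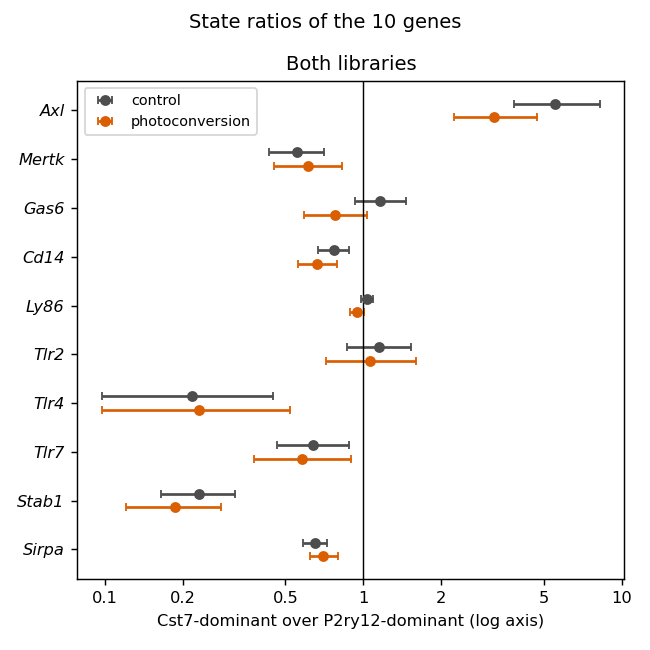
Ratio of the level in Cst7-dominant to that in P2ry12-dominant cells for each gene (horizontal log axis; 1 marked by a line) in the control (grey) and photoconversion (orange) libraries, with 95% counting intervals. Axl lies to the right of 1 in both libraries at 5.51 and 3.19, and Stab1 and Tlr4 lie farthest to the left.

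The state patterns were also followed over 5 bands of the Cst7 share of a cell's Cst7 and P2ry12 UMIs. Axl was at 27.3 CPM in control cells with P2ry12 only and at 32.5 CPM in cells with a share up to 1/3, then at 209 CPM from 1/3 to 2/3 and 215 CPM from 2/3 to below 1. In the photoconversion library the same bands were at 47.6, 53.5, 190 and 248 CPM. The Axl level was thus already high in cells that held both marker genes in comparable amounts, and the first 2 bands did not overlap the next 2 in either library. Mertk went from 191 through 155, 111 and 94.8 CPM in the control and from 170 through 150, 92.1 and 97.9 CPM in the photoconversion library, a smaller and more gradual difference with overlapping neighbours. Stab1 was at 246, 132, 75.0 and 25.0 CPM in the control and at 129, 175, 21.7 and 26.9 CPM in the photoconversion library. Cells with Cst7 only, 50 and 32 in number, were shallow, with medians of 1523.5 and 1524 UMIs. Their Axl level was 80.1 CPM (36.6 to 152) on 9 UMIs in the control, below the 215 CPM (189 to 243) of the neighbouring band. After photoconversion it was 124 CPM (56.5 to 235) on 9 UMIs, and this interval overlapped that of the neighbouring band (219 to 279). In the cells with Cst7 only, Mertk was at 26.7 and 41.2 CPM, on 3 UMIs in each library. Stab1 was at 80.1 CPM (36.6 to 152) on 9 UMIs in the control, above the 25.0 CPM (16.7 to 35.9) of the neighbouring band, and at 41.2 CPM (8.50 to 120) on 3 UMIs after photoconversion, so its control level was not lower in every further band. Ly86, nearly flat between the 2 states, was not flat over the bands. It was highest from 1/3 to 2/3, at 3171 CPM (2975 to 3377) in the control and 3381 CPM (3121 to 3657) after photoconversion. It was lowest in cells with Cst7 only, at 1770 CPM (1533 to 2034) and 1978 CPM (1668 to 2329). The part of depth in these differences was not tested.

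**Figure D4:**
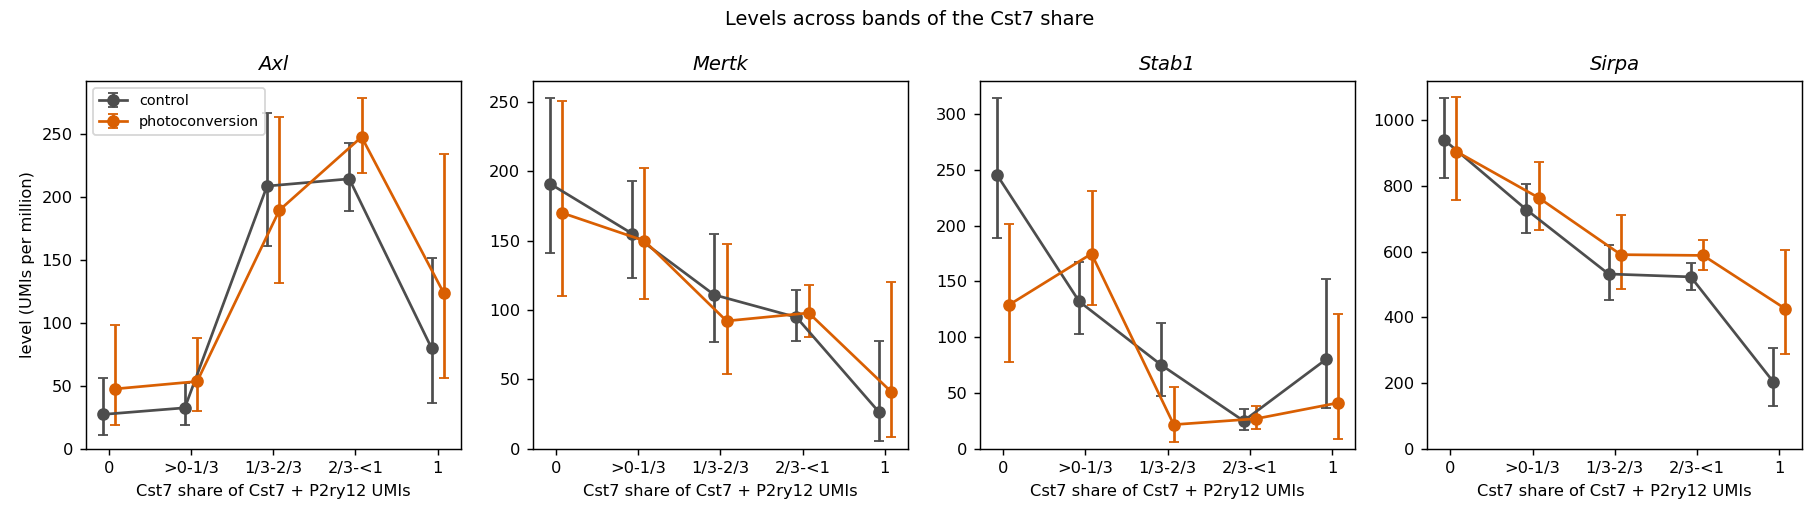
Level in CPM (vertical axis from 0) of Axl, Mertk, Stab1 and Sirpa in 5 bands of the Cst7 share of Cst7 and P2ry12 UMIs (horizontal axis) in the control (grey) and photoconversion (orange) libraries, with 95% Poisson intervals. Axl steps up at a Cst7 share of 1/3 in both libraries, from 32.5 to 209 CPM in the control, while Mertk is lower in the upper bands.

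Between libraries, over all kept cells, Axl was the member with the higher level after photoconversion past the size used. Of 9 members past the minimum, 1 had a control level of at most 0.8 of its photoconversion level, against 7.31% of 4009 genes. On the lower side 3 had a photoconversion level of at most 0.8 of the control level, Tlr2, Tlr7 and Stab1, against 16.5%. The median log2 ratio was -0.13 over the 10 members and -0.06 over all 4009 genes. Axl had 349 UMIs in the control and 343 after photoconversion, levels of 144 CPM (129 to 160) and 189 CPM (169 to 210). The intervals did not overlap, and the ratio was 1.31 (1.13 to 1.53). It was 1.11 in cells thinned to 1000 UMIs and 1.23 with the states weighed equally, both under the size used. Cells with border macrophage markers held 59 and 39 of the Axl UMIs, and outside them Axl was at 134 and 187 CPM.

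Within states, the Axl ratio was 1.11 (0.940 to 1.30) in Cst7-dominant and 1.91 (1.14 to 3.20) in P2ry12-dominant cells. The second rests on 32 control and 34 photoconversion UMIs, and the first was 0.781 in cells thinned to 1000 UMIs. Mertk was at 117 CPM (283 UMIs) and 108 CPM (196 UMIs), a ratio of 0.924 (0.766 to 1.11), and its ratio was 1.02 in Cst7-dominant and 0.924 in P2ry12-dominant cells. All 3 Mertk intervals included 1. Gas6 was at 151 and 137 CPM, a ratio of 0.908 (0.769 to 1.07), with 0.787 (0.642 to 0.963) in Cst7-dominant and 1.17 (0.868 to 1.58) in P2ry12-dominant cells, the latter 0.877 after thinning.

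Stab1 had the lowest ratio of the members, from 199 UMIs (82.1 CPM, 71.1 to 94.4) in the control to 106 UMIs (58.4 CPM, 47.8 to 70.6) in the photoconversion library, or 0.711 (0.556 to 0.904). Within states it was 0.747 (0.476 to 1.16) in Cst7-dominant and 0.925 (0.682 to 1.246) in P2ry12-dominant cells, and both intervals included 1. In thinned cells the Cst7-dominant ratio was 1.29. Over all kept cells the ratio was 0.892 with the states weighed equally and 0.938 in thinned cells. P2ry12-dominant cells made up 42.0% of the photoconversion and 52.3% of the control cells, and the part of that share in the Stab1 difference was not tested. Outside cells with border macrophage markers Stab1 was at 84.6 CPM (72.8 to 97.8) and 61.6 CPM (50.1 to 74.9), with overlapping intervals, and the part of those cells in the difference was not tested.

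Cd14 went from 375 CPM (908 UMIs) to 326 CPM (592 UMIs), a ratio of 0.870 (0.783 to 0.966). Its ratio was 0.874 (0.762 to 1.001) in Cst7-dominant and 1.01 (0.849 to 1.20) in P2ry12-dominant cells, the latter 0.777 after thinning. In cells of neither state it had 51 UMIs in the control and 3 after photoconversion. Those cells also held most monocyte marker UMIs of the control library, 135 of 184, against 2 of 29 in the photoconversion library. Without the cells that held a border macrophage or monocyte marker the Cd14 ratio was 0.821. Tlr2 went from 97.0 CPM (235 UMIs) to 77.1 CPM (140 UMIs), a ratio of 0.795 (0.640 to 0.984), with 0.777 (0.599 to 1.004) in Cst7-dominant and 0.839 (0.545 to 1.27) in P2ry12-dominant cells. Both within-state intervals included 1, and the second ratio was 0.433 in cells thinned to 1000 UMIs. Tlr7 went from 69.3 CPM (168 UMIs) to 54.5 CPM (99 UMIs), a ratio of 0.786 (0.607 to 1.01), with 0.781 (0.552 to 1.10) in Cst7-dominant and 0.864 (0.567 to 1.29) in P2ry12-dominant cells, all including 1. In thinned cells the within-state Tlr7 ratios were 2.36 and 0.503, so neither direction nor size is set by these counts. With TMM scaling, which moves every ratio up by the same factor, Tlr2 was at 0.830 and Tlr7 at 0.821, so that Stab1 alone stayed at or under 0.8.

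Ly86 was at 2624 and 2741 CPM, a ratio of 1.04 (1.01 to 1.08). Sirpa was at 590 CPM (1429 UMIs) and 631 CPM (1146 UMIs), a ratio of 1.07 (0.989 to 1.16), with 1.13 (1.02 to 1.255) in Cst7-dominant cells. Tlr4, with 40 and 29 UMIs, had a ratio of 0.967 (0.578 to 1.60). Ly86 and Sirpa thus differed by less than the size used, and for Tlr4 the interval is too wide to tell such a difference. In cells thinned to 1000 UMIs the Tlr4 ratio was 1.61, and that of Sirpa in Cst7-dominant cells was 0.957.

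**Figure D5:**
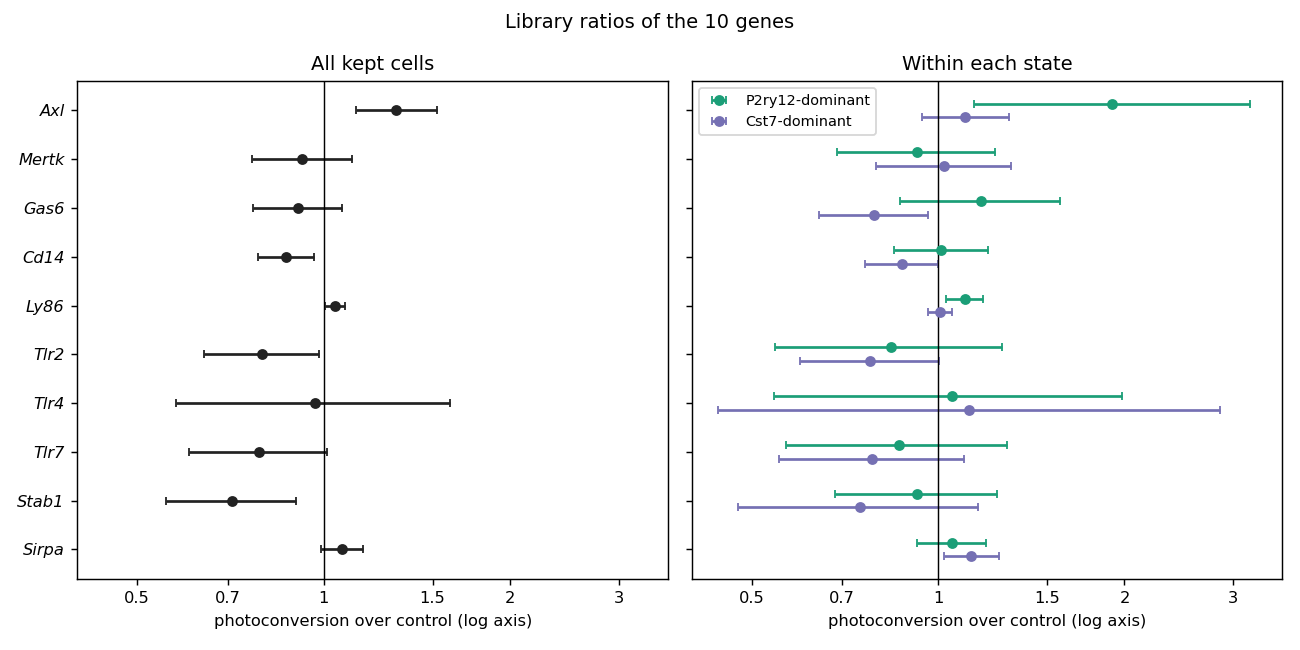
Ratio of the photoconversion to the control level for each gene (horizontal log axis; 1 marked by a line) in all kept cells (left, black) and within P2ry12-dominant (green) and Cst7-dominant (purple) cells (right), with 95% counting intervals. Axl lies above 1 at 1.31 in all kept cells and at 1.91 in P2ry12-dominant cells, while the Stab1 ratio of 0.711 in all kept cells is nearer to 1 within P2ry12-dominant cells at 0.925.

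Other genes of the same pathways were followed in 4 lists. Of 13 measured genes for TAM signalling and uptake of dying cells, 0 were higher by that size and 2 were lower after photoconversion, against 7.31% and 16.5% of all genes. Between states, 1 was at least 1.5-fold higher in Cst7-dominant cells of both libraries, Anxa5, which binds phosphatidylserine, and 5 were lower: Havcr2, Cd300a, Lrp1, Elmo1 and Abca1. Over all genes these shares were 7.41% and 20.6%. Cd300a, an inhibitory receptor for phosphatidylserine, had state ratios of 0.337 (0.262 to 0.432) and 0.308 (0.224 to 0.424). Lrp1, an endocytic receptor of apolipoprotein E and dying cells, had 0.653 (0.521 to 0.819) and 0.560 (0.438 to 0.717). Mfge8, another bridging ligand, had the lowest library ratio of the measured genes of its list, those with at least 100 UMIs, with 43.3 and 28.6 CPM and a ratio of 0.661 (0.464 to 0.930).

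Of 17 measured genes for Toll-like receptor complexes and signalling, 0 were higher and 9 were at least 1.5-fold lower in Cst7-dominant cells of both libraries, against 7.41% and 20.6% of all genes. Among the 9 were Ly96, the Tlr4 co-receptor MD-2, and the adaptor Myd88. Unc93b1, which carries Tlr7 to endosomes, was lower in Cst7-dominant cells, at 464 against 1326 CPM in the control and 421 against 992 CPM after photoconversion. Its state ratio was 0.350 (0.317 to 0.385) and 0.425 (0.375 to 0.482), and its library ratio was 0.751 (0.695 to 0.811). Nfkbia, the inhibitor of NF-kB that is itself an early target, had state ratios of 0.296 and 0.220. Between libraries 2 of 18 were higher by the size used, Irak1 and Irf7, on 55 and 48 control UMIs, and 2 were lower, Unc93b1 and Nfkbia, against 7.31% and 16.5% of all genes. The ratio was 1.29 (0.865 to 1.91) for Irak1, 1.45 (0.957 to 2.19) for Irf7 and 0.796 (0.630 to 1.003) for Nfkbia. These intervals all included 1, and that of Unc93b1 did not.

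Of 7 other pattern receptors 3 were lower in Cst7-dominant cells of both libraries: Clec4a2, Clec4a3 and Siglech, against 20.6% of all genes. Clec4a3 had state ratios of 0.127 and 0.089 and a library ratio of 0.538 (0.404 to 0.710), with 181 control and 73 photoconversion UMIs. Of 7 genes around Sirpa, Tyrobp, an adaptor that signals for Trem2 and for Sirpb1, was higher in Cst7-dominant cells at 2.26 and 2.16, and Cd47 and Fyb were lower, so that 1 and 2 of 7 passed the size, against 7.41% and 20.6% of all genes. Cd47, the ligand of Sirpa, was at 107 against 213 CPM in the control and 93.9 against 169 CPM after photoconversion, and its library ratio was 0.769 (0.644 to 0.917). Sirpa and its ligand were therefore both lower in Cst7-dominant cells, with state ratios of 0.502 and 0.556 for Cd47.

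The genes whose levels tracked Axl and Mertk most closely from cell to cell were different sets. Over 439 control and 272 photoconversion cells of at least 1000 UMIs, the 5 genes with the highest Pearson r to Axl out of 2251, by the lower of both libraries, were Apoe (0.406), Cst7 (0.394), Cd52 (0.358), Ank (0.357) and Csf1 (0.356). For Mertk they were Malat1 (0.273), Cx3cr1 (0.215), P2ry13 (0.214), Fcrls (0.212) and Unc93b1 (0.210). Cst7 is among the genes that define the states. Axl against Mertk gave 0.015 in the control and 0.002 after photoconversion, and Axl against Stab1 gave -0.148 and -0.189. These correlations share library and cell depth, and are a description only.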

How the data were processed

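Per the submitters' processing notes, the authors used bcl2fastq, Cell Ranger (3.0.2 per the file headers) and mm10, and deposited an unnormalized UMI count for each gene in each barcode. Both libraries were 10x droplet data, and a series-wide table was not used. Members, lists and states were chosen with earlier results of these data known. Symbols were matched exactly, and Clec7a, on 2 lists, is not analysed here. Counts of kept cells were summed per library and state and scaled to CPM. Sums carry exact Poisson, ratios exact conditional binomial and shares exact Clopper-Pearson intervals at 95%. Ratios of ratios carry exact conditional intervals. No fit or p-value was made, since each group was 1 library. Background counts used genes with at least 100 UMIs. All members were named, and of each list the 2 genes with most UMIs and the largest and smallest library ratios; further list genes were named after their values were seen. For likeness, log2(CPM/100 + 1) was used in genes of at least 200 UMIs. Doublets were not removed. Library ratio intervals were run on sums simulated with the same Poisson counting that they assume. That run could not test clustering of UMIs in cells or differences between mice. Python 3.11.15, numpy 2.4.6, scipy 1.17.1 and edgeR 4.0.16 (TMM factors only) were used. Reads, and with them strand and splitting between similar genes, were not analysed here.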

Additional observations from a re-analysis of the deposited data

Results flagged for a closer look

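The state ratios of Gas6 and Ly86 lay on opposite sides of 1 in the libraries, although the interval of each of the 4 ratios included 1. The Gas6 state ratio was 1.16 in the control and 0.779 after photoconversion, the second over the first being 0.671 (0.467 to 0.967). For Ly86 these were 1.03 and 0.945, and 0.913 (0.841 to 0.992). With 1 library per group the difference was not tested beyond counting error. After thinning to 1000 UMIs the Gas6 control ratio was 0.792, on the side of the photoconversion library. For Ly86 both ratios were above 1 without ribosomal and mitochondrial genes (1.16 and 1.05) and below 1 in cells of 2000 to 8000 UMIs (0.893 and 0.838), so neither gene kept opposite sides under these settings. In barcodes with fewer than 200 genes, 1340 and 1608 in number, no member had a level in the photoconversion library above that of the control beyond counting error.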

How the results depend on the processing

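The 10 library ratios were recomputed under 110 settings in all, of which 99 stayed within the counting interval of the value reported, 11 left it and 0 changed side after passing the size used. Of 260 for the 20 state ratios, 212 stayed, 44 left it and 4 changed side after passing the size used. These were Mertk to 1.03 (photoconversion, states from thinned UMIs), and Tlr7 to 1.06 (control, cells of 2000 to 8000 UMIs), 1.15 and 1.32 (photoconversion, thinned to 1000 UMIs, and with states from thinned UMIs). Side changes of ratios under that size are not in this count, such as Gas6 in the control from 1.16 to 0.642 (states from thinned UMIs). Of 79 for the 20 library ratios within states, 66 stayed, 13 left it and 0 changed side after passing the size used. Axl was at least 1.5-fold higher in Cst7-dominant cells of both libraries under all 13 alternatives, and Stab1 at least 1.5-fold lower. The count of members higher by the size used after photoconversion went from 1 to 0 with thinning, that at or under 0.8 from 3 to 1 with TMM and without ribosomal and mitochondrial genes, and that lower in Cst7-dominant cells from 3 to 1 without those genes. The Axl to Mertk difference between states, 9.98 and 5.23, was 27.7 and 10.6 without the 10 richest cells and 2.38 in thinned photoconversion cells. Leaving out 10 cells takes most Axl UMIs of the P2ry12-dominant cells, so the higher values are no check of its size. With a margin of 3 UMIs, Cst7-dominant cells were 29.5% and 39.4% and P2ry12-dominant cells 42.0% and 34.7%. With states called on UMIs thinned to 1000, Cst7-dominant cells were 37.4% and 44.9% and P2ry12-dominant cells 49.2% and 43.0%. The libraries were thus closer at equal depth. The causes were not tested. Weighing states equally, leaving out cells with border macrophage or monocyte markers, and the depth band were chosen after seeing the data. Leaving out a replicate could not be run with 1 library per group. No paired analysis was possible because each group had 1 library and the result comes from no test. Thinned sums of Tlr4, Tlr7 and Tlr2 hold few UMIs. At 1000 UMIs the states overlapped in the share of cells with a UMI for Tlr2 in both libraries. They also overlapped for Tlr4 in the control and Tlr7 after photoconversion, so no order was detectable there. They did not overlap for Tlr7 in the control, with 3.28% of Cst7-dominant and 11.6% of P2ry12-dominant cells. Nor did they for Tlr4 after photoconversion, with 0 of 142 and 8 of 119 cells, where 0 allows up to 2.11%. Doublets were not removed.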
